A study of Rattus norvegicus with 6 samples.

Results

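The secretory pathway for matrix export was followed through 46 genes, chosen by name from the route that a collagen takes out of the cell, out of 17954 genes in the deposited tables. They comprised 5 proteins of the signal recognition particle, 9 of the translocon, 3 of signal peptidase, 10 of the COPII coat, 2 collagen exit-site receptors, 5 cargo receptors, 6 of the COPI coat, 3 KDEL receptors, the collagen chaperone Serpinh1 and the transcription factors Creb3l1 and Creb3l2. The libraries are from rat. Chondrocytes of the mandibular condyle, the head of the lower jaw, were grown flat in DMEM with 20% fetal bovine serum and antibiotics (2D culture, 3 libraries), and condylar cartilage organoids were kept in a chondrogenic medium (3 libraries). Format and medium differed together between the groups and cannot be told apart, and the serum content of the organoid medium is not given in the sources used here. No strain, age, genetic change or passage is given in the sources used here. The labels do not say whether the 3 libraries of a group are from different animals or dishes. The p-values therefore cover only the spread seen among these libraries, which could be technical.

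Secreted proteins enter the endoplasmic reticulum (ER) as they are made. The signal recognition particle brings the ribosome to the Sec61 channel, and signal peptidase removes the leader. Cargo leaves in carriers coated with COPII, and escaped ER residents come back in vesicles coated with COPI. Procollagen is too long for an ordinary COPII vesicle and leaves with the help of TANGO1, the product of Mia3. In cartilage and bone the pathway is known for its load of collagen and proteoglycan, and in mouse CREB3L1 (OASIS, in osteoblasts) and CREB3L2 (BBF2H7, in chondrocytes) are factors that act on secretory and collagen genes.

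Most of the pathway moved little between flat culture and organoid, and a few members at different steps were higher. Creb3l1 had the largest rise, 19.5-fold, followed by Serpinh1 at 2.55-fold and the outer coat gene Sec31a at 2.37-fold. Of 46 members, all of which passed the low-count filter, 9 rose (19.6%) and 0 fell in edgeR's quasi-likelihood test at an adjusted p under 0.05, against 14.9% higher and 12.6% lower among all 13052 genes tested. The share that rose is thus near the background. At an unadjusted p under 0.05, 14 of 46 members were higher and 2 lower, beside 2737 higher and 2565 lower of all 13052 genes. DESeq2 and group-weighted limma-voom each called 2 members lower, beside 17.3% and 14% of all genes. The groups did not overlap in 23 members (50%), against 53.5% of all genes. The log2 fold change (organoid over 2D culture) lay within 2-fold in 42 of 46 members (91.3%), compared with 55.6% of all genes tested and 62.8% of the 6914 genes at or above the lowest member's mean level. Its median was 0.19 over the members and -0.03 over all genes.

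**Figure D1:**
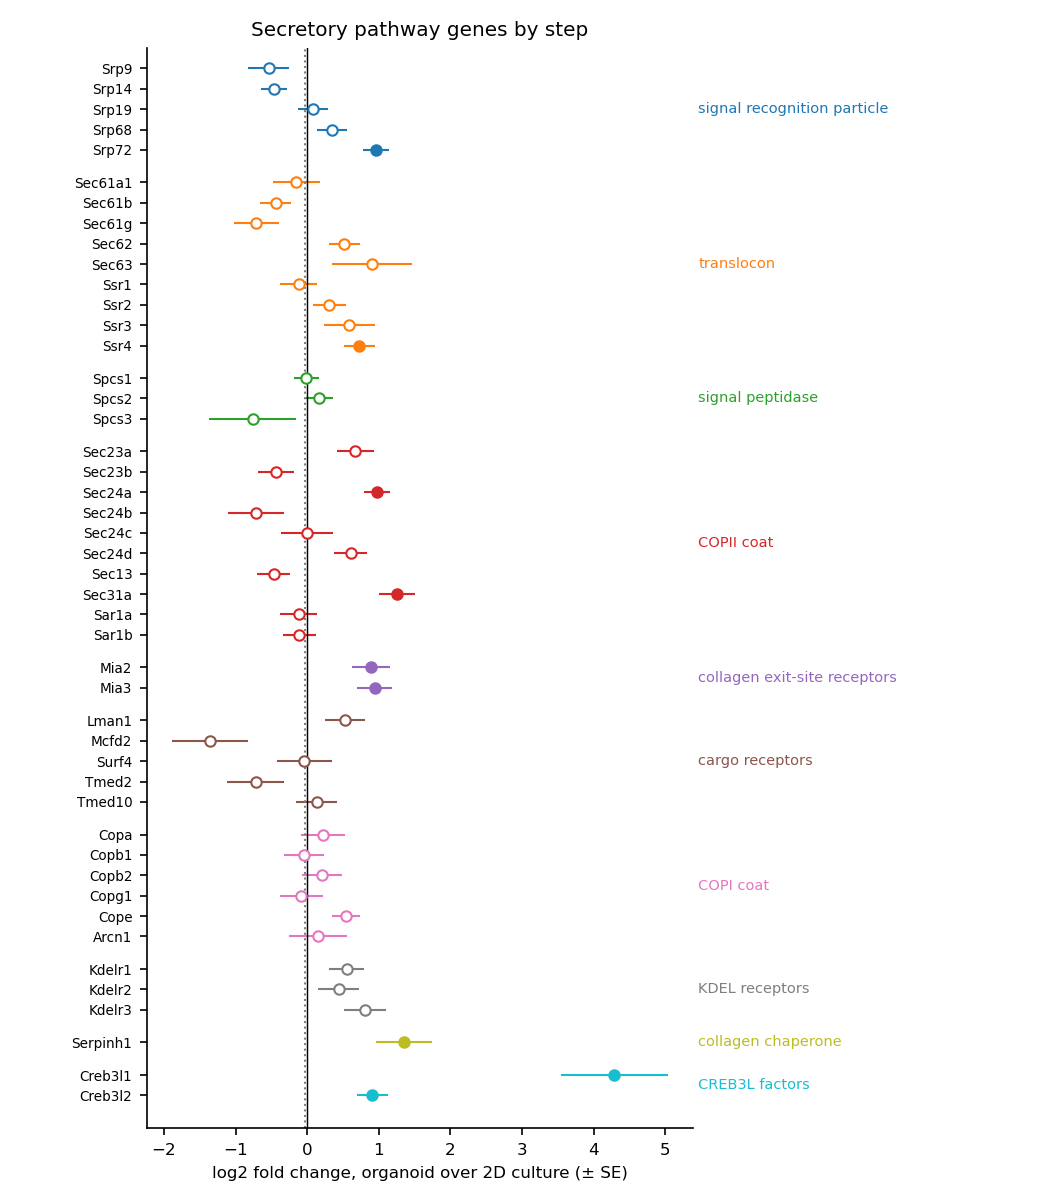
Log2 fold change of each of the 46 members, organoid over 2D culture, with its standard error, grouped by step of the pathway. Filled points passed the edgeR test and the dotted line is the median of all genes tested; 9 members are filled, all to the right of 0, with Creb3l1 farthest at 4.29.

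Levels are CPM (counts scaled to the library total) after TMM scaling, which sets libraries to a common level by a trimmed mean of gene ratios, and they compare a gene between libraries, not genes of different length with each other. Library totals ran from 18592574 to 26472447 estimated counts. Col1a1, the main collagen cargo, took 3.31% to 4.35% of counts in 2D culture and 20% to 26.4% in organoids, while the 46 members together took 1.42% to 1.46% and 1.07% to 1.3%. When libraries were scaled by their totals instead of by TMM, the median log2 fold change of all genes moved from -0.03 to -0.65, and 1 member was higher and 12 lower, beside 8.14% higher and 27% lower of all genes. Directions below thus hold relative to the bulk of genes. Leaving out any 2D culture also ended nearly all calls among members, with 0, 1 and 0 higher without 2D culture 1, 2 and 3, as calls over all genes fell to 5.34%, 5.79% and 5.25% higher. Without organoid 2, 21 members rose and 1 fell, beside 20.5% higher and 19.2% lower of all genes.

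Markers of the label were checked first. Of 9 chondrocyte markers, 8 were tested and 7 rose, with a summed level of 1499 to 1601 CPM in 2D culture and 11488 to 99463 CPM in organoids. Col2a1 was at 2.91 to 4.89 CPM in 2D culture, so the defining collagen of cartilage was near 0 there. Acan, by contrast, was at 1454, 1513 and 1413 CPM in 2D culture and at 8278, 1717 and 3044 CPM in organoids. Acan was the tested marker that did not pass (edgeR adjusted p = 0.0824). Sox9 was at 51.4 to 55.4 CPM and Hapln1 at 20.7 to 21.7 CPM in 2D culture. The other chondrocyte markers were at most 8.34 CPM there. Osteoblast markers also moved with the groups, with 8 of 8 higher and a summed level of 603 to 675 CPM against 20476 to 27425 CPM, and their part in the members' results was not tested. The summed level of 6 endothelial markers was at most 6.61 CPM in any library, with Kdr at 0 in every organoid and Cldn5 higher (0 in every 2D culture, 0.884, 4.21 and 2.84 CPM in organoids). The sum of 7 macrophage and osteoclast markers was 148 to 149 CPM in 2D culture and 113 to 317 CPM in organoids, with Adgre1 and Tnfrsf11a at 0 in every organoid. Of that list Acp5 rose, from 3.55 to 4.35 CPM in 2D culture to 99, 23.2 and 14.8 CPM in organoids, and Csf1r was at 32.5, 16.7 and 0.142 CPM in organoids. The sum of 7 muscle markers was 1.53 to 3.25 and 3.67 to 29.7 CPM, and that of 5 fat markers 25.6 to 28 and 9.13 to 22.9 CPM. The only muscle marker called, Myh3, fell (1.93, 0.611 and 1.7 CPM in 2D culture, at most 0.0589 CPM in organoids). The only fat marker called, Fabp4, rose, from 0.275 to 0.402 CPM in 2D culture to 10.8, 7.57 and 5.06 CPM in organoids. The part of these lists in the members' results was likewise not tested. In such bulk RNA, fewer cells of a type and less RNA per cell cannot be told apart.

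Promoters were read because the CREB3 family and the ER stress factors bind known short elements. RefSeq promoters (build GRCr8, 250 bases before to 50 after the start site) were matched for 40 of 46 members. The core TGACGTGG of the unfolded protein response element (UPRE), searched on both strands, occurred in 6 of 40 members (15%), in 6 of 76 other early secretory pathway genes (7.89%) and in 0.999% of the 10615 tested genes with a promoter in the table. The cyclic AMP response element TGACGTCA occurred in Cope alone among the members (2.5%, against 3.3% of tested genes). The ER stress elements ERSE (CCAAT, 9 bases, CCACG) and ERSE-II (ATTGG, 1 base, CCACG) occurred in 0 members, against 0.151% and 0.0942% of tested genes. The UPRE core shares TGACGT with the cyclic AMP element and, on its other strand, CCACG with both ERSE patterns. The stretches around the UPRE core are shown 5′ to 3′ on the gene's strand with the core or its reverse complement in capitals, because the core was more frequent in the members than in tested genes. They lie at 3 COPI coat genes, 1 COPII gene, 1 KDEL receptor and 1 gene of the signal recognition particle.
Copa (chr13:87078878-87078907, plus strand): gagccgcgacctggggtagcTGACGTGGag
Copb1 (chr1:177872819-177872866, minus strand): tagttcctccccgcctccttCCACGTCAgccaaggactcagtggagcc
Copb2 (chr8:108040657-108040704, plus strand): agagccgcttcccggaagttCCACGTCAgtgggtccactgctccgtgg
Kdelr3 (chr7:112959511-112959558, plus strand): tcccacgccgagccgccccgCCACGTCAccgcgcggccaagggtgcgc
Sec23a (chr6:82440968-82441015, minus strand): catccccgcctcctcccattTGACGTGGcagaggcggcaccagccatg
Srp19 (chr18:26205713-26205760, plus strand): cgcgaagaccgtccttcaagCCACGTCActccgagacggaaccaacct

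The core began 31 bases into the transcript of Copa, and 6, 10, 101, 91 and 155 bases before the start site of Copb1, Copb2, Kdelr3, Sec23a and Srp19. None of these 6 genes passed the edgeR test, and their log2 fold changes ran from -0.04 for Copb1 to 0.81 for Kdelr3. Of the 6 other pathway genes with the core, Stx5 (0.77), Gbf1 (0.84) and Golgb1 (1.76) rose (edgeR adjusted p = 0.0192, 0.02 and 0.00684), and Scfd1, Arf1 and Arf4 did not pass. Over all 106 tested genes with the core, 18 rose (17%) and 9 fell (8.49%), beside 14.9% higher and 12.6% lower of all 13052 genes tested. Their median log2 fold change was 0.17, beside -0.03 for all genes tested. The difference was not tested. A match describes letters and not a bound site.

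The regulators opened the list of changes. Creb3l1 (gene ID 362165), a membrane-bound factor released by cleavage in the Golgi, was at 45.1, 56.9 and 46 CPM in 2D culture 1, 2 and 3, and at 359.9, 2058 and 470.3 CPM in organoid 1, 2 and 3. Every organoid stood above every 2D culture, and organoid 2 lay far above both others. The log2 fold change was 4.29 ± 0.75 (SE, n = 3 libraries a group; edgeR adjusted p = 0.00865), and 3.12 without organoid 2 (adjusted p = 0.000527). Creb3l1 was the only member still higher with total library size (3.76, adjusted p = 0.0108) and without 2D culture 2 (adjusted p = 0.0469), and it missed the threshold without 2D culture 1 and 3 (adjusted p = 0.0553 and 0.0528).

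Creb3l2, its close relative, was at 43.2, 55.9 and 48.8 CPM in 2D culture and at 113, 84.2 and 80.4 CPM in organoids. All 3 organoids were higher, with organoid 1 at the top. The log2 fold change was 0.91 ± 0.22 (edgeR adjusted p = 0.0255). The counts of both factors were about equal in each 2D culture, with Creb3l1 to Creb3l2 ratios of 1.04, 1.02 and 0.943, and reached 3.19, 24.4 and 5.85 in organoid 1, 2 and 3. This ratio does not depend on how libraries are scaled. Its groups did not overlap, and the exact permutation p was 0.1, the smallest that 3 against 3 libraries can give (adjusted over 8 pairs 0.16).

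Serpinh1 (HSP47), the ER chaperone that binds folded procollagen, was at 717, 692 and 639.5 CPM in 2D culture and at 2743, 1033 and 1457 CPM in organoids. Each organoid was above the 2D range and organoid 1 was highest, as it was for Col1a1 (399066, 223931 and 262234 CPM in organoid 1, 2 and 3). The log2 fold change was 1.35 ± 0.39 (edgeR adjusted p = 0.0411). The call ended without organoid 3 (adjusted p = 0.0561) and with no low-count filter (adjusted p = 0.0529). The 3 collagens listed as cargo moved by far more, with Col1a1 higher by 3.21, Col10a1 by 11.57 and Col2a1 by 13.11 on the log2 scale. Col10a1, like Col2a1, was near 0 in 2D culture (0.429, 0.428 and 0.65 CPM). Other cargo was not compared here.

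**Figure D2:**
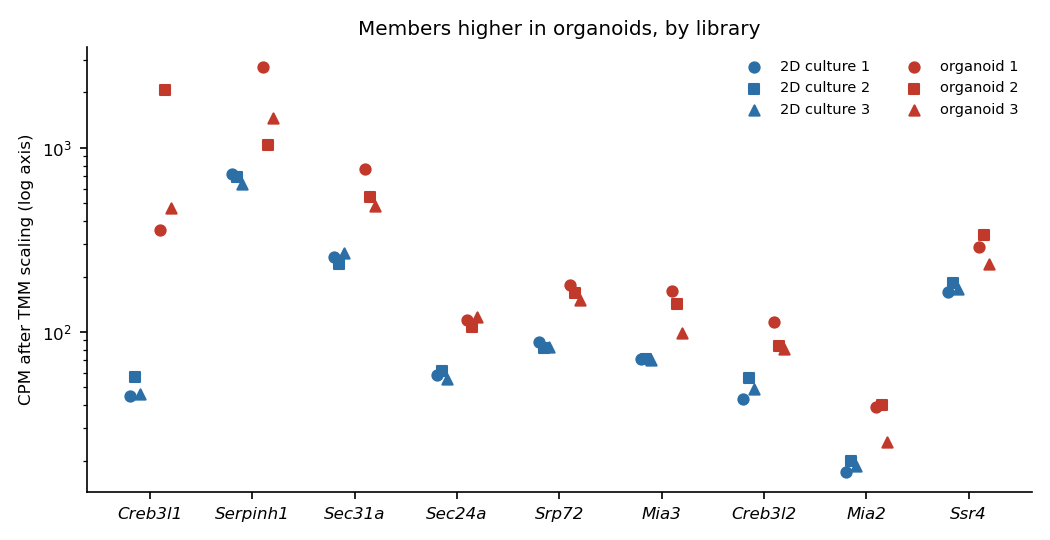
CPM after TMM scaling (log axis) of the 9 members that rose, with a point for each of the 3 2D culture (blue) and 3 organoid (red) libraries. In each gene all organoid points lie above all 2D culture points, and Creb3l1 in organoid 2 reaches 2058.

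At the exit sites, where procollagen enters COPII carriers, both receptors rose by nearly the same amount, beside 14.9% higher of all genes. Mia3, which encodes TANGO1, was at 71.6, 71.2 and 70 CPM in 2D culture and at 166, 142 and 99.2 CPM in organoids. Mia2, whose locus encodes the partner cTAGE5, was at 17.3, 20 and 18.8 CPM and at 39.1, 40 and 25.2 CPM. In both genes the organoids were higher without overlap and organoid 3 was the lowest of them. The log2 fold changes were 0.94 ± 0.24 for Mia3 (edgeR adjusted p = 0.0273) and 0.89 ± 0.26 for Mia2 (edgeR adjusted p = 0.0455). Mia2 lost its call without organoid 1 (adjusted p = 0.0641), with limma-voom (adjusted p = 0.0702) and with no low-count filter (adjusted p = 0.0712). With total library size neither passed, at 0.29 for Mia3 and 0.26 for Mia2 (edgeR adjusted p = 0.336 and 0.514). The Mia3 to Mia2 ratio of counts was 3.56 to 4.14 in 2D culture and 3.55 to 4.25 in organoids, so the groups overlapped (exact permutation p = 0.8).

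The COPII coat was uneven, with 2 of 10 members higher (20%), 0 lower and a median log2 fold change of -0.05. These counts stand beside 14.9% higher and 12.6% lower of all genes. Sec31a, the rod of the outer cage, was at 254, 234 and 268 CPM in 2D culture and at 765, 543 and 482 CPM in organoids, which did not overlap. Its log2 fold change was 1.25 ± 0.25 (edgeR adjusted p = 0.0127). Its cage partner Sec13, which also serves the nuclear pore, was at 275, 263 and 260.4 CPM and at 194, 145 and 236 CPM. Here every organoid was below every 2D culture, although the difference did not pass (-0.47 ± 0.23, edgeR adjusted p = 0.176).

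Sec24a, a cargo-binding inner coat protein, was at 58.3, 61.7 and 55.3 CPM in 2D culture and at 116, 107 and 119.9 CPM in organoids. It rose by 0.97 ± 0.18 (edgeR adjusted p = 0.00967), and the organoids were close to each other. Its paralogue Sec24b was at 52.3, 47.4 and 53.9 CPM and at 51.4, 20.7 and 21.6 CPM, with organoid 1 inside the 2D range. Sec24b did not pass (-0.71 ± 0.39, edgeR adjusted p = 0.217), and was lower when libraries were scaled by their totals (-1.42, adjusted p = 0.0134) or organoid 1 was left out (-1.26, adjusted p = 0.00994). The Sec24a to Sec24b ratio was 1.11, 1.3 and 1.03 in 2D culture and 2.25, 5.17 and 5.54 in organoids, without overlap (exact permutation p = 0.1, adjusted 0.16).

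Sec23a, the inner coat GTPase activator mutated in a human skull and skeletal dysplasia, was at 228, 191 and 223 CPM in 2D culture and at 425, 242 and 358 CPM in organoids. Its paralogue Sec23b was at 112, 98.5 and 110 CPM and at 94.9, 55.9 and 87.4 CPM. Sec23a was higher and Sec23b lower in every organoid than in every 2D culture, and neither passed (0.67 ± 0.26 and -0.43 ± 0.25, edgeR adjusted p = 0.0976 and 0.239). The Sec23a to Sec23b ratio of counts was 2.04, 1.94 and 2.03 in 2D culture and 4.48, 4.33 and 4.1 in organoids. It was 2.15-fold higher in organoids, did not overlap and hardly varied between organoids (SD 0.064 on the log2 scale; exact permutation p = 0.1, adjusted 0.16). Sec23a passed with DESeq2 (adjusted p = 0.0379) and without organoid 2 (0.92, adjusted p = 0.00715). With total library size Sec23a stood at 0.03 (edgeR adjusted p = 0.937) and Sec23b was called lower (-1.07, edgeR adjusted p = 0.0123).

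Sec24d, mutated in a human brittle bone syndrome, was at 228, 216 and 251 CPM in 2D culture and at 401, 274 and 383 CPM in organoids, and Sec24c at 121, 109 and 128 CPM and at 172, 63.9 and 122 CPM. Sec24d did not overlap between groups and Sec24c did, and neither passed (0.61 ± 0.23 and 0.00 ± 0.36, edgeR adjusted p = 0.0872 and 0.999). Sec24d passed as higher with DESeq2 (adjusted p = 0.0246) and turned to -0.03 with total library size. The Sec24d to Sec24c ratio was 1.88 to 1.98 in 2D culture and 2.33, 4.28 and 3.15 in organoids (exact permutation p = 0.1, adjusted 0.16). Sar1a and Sar1b, the GTPases that start coat assembly, had log2 fold changes of -0.12 ± 0.26 and -0.11 ± 0.23. Their ratio was 0.142 to 0.158 in 2D culture and 0.135 to 0.163 in organoids, which overlapped (exact permutation p = 0.9).

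**Figure D3:**
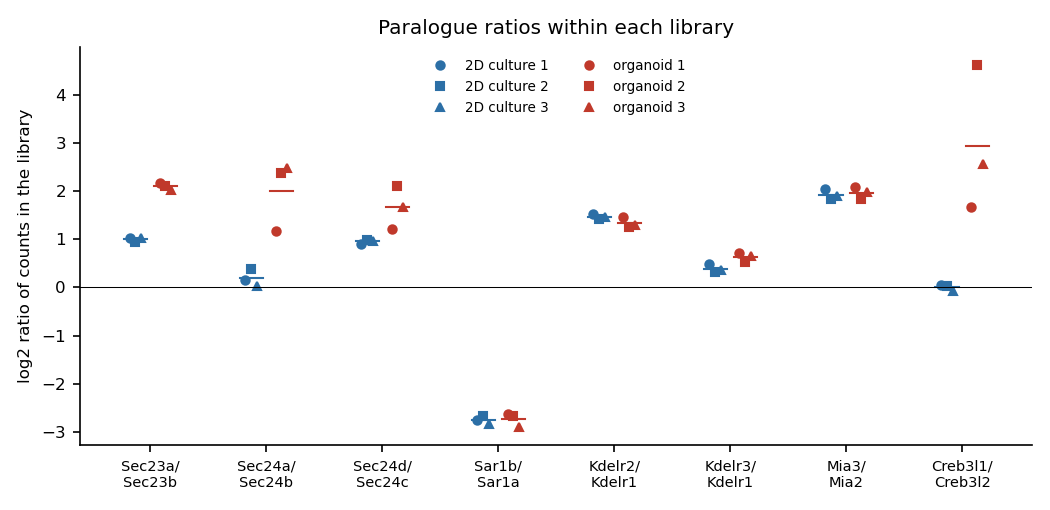
Log2 ratio of the counts of 2 paralogues within each library, for 8 pairs, with 2D culture in blue, organoids in red and bars at the group means. The groups separate for Sec23a/Sec23b (mean 1 against 2.1), Sec24a/Sec24b, Sec24d/Sec24c, Kdelr3/Kdelr1 and Creb3l1/Creb3l2, and overlap for Sar1b/Sar1a, Kdelr2/Kdelr1 and Mia3/Mia2.

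Sec24a and Sar1b are neighbours read in opposite directions, and the region between their RefSeq start sites is shown because the genes on its sides behaved differently. It spans chr10:36525303-36525365 (GRCr8), with 61 bases between the starts, and is printed on the plus strand with the first transcribed base of each gene in capitals.
Sec24a and Sar1b start sites: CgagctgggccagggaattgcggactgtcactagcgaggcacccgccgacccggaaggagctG

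The Sec24a to Sar1b ratio of counts was 0.735, 0.798 and 0.737 in 2D culture and 1.37, 2.02 and 1.55 in organoids. Sec24a rose, as given above, while Sar1b was at 79.3, 77.4 and 75.1 CPM and at 84.4, 53 and 77.5 CPM. This pair was chosen after the values were seen and has no test.

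At entry into the ER the signal recognition particle was mixed, with 1 of 5 members higher and 0 lower. Of all genes 14.9% were higher and 12.6% lower. The median log2 fold change of these 5 members was 0.08. Srp72 was at 88.4, 82 and 83.3 CPM in 2D culture and at 181, 162 and 150 CPM in organoids, higher without overlap by 0.96 ± 0.18 (edgeR adjusted p = 0.0106). Srp72 had fractional counts in 6 libraries, a sign of reads shared with other genes, so its level is uncertain. Srp68, which pairs with Srp72 on the particle's RNA, was at 68.8 ± 8.22 and 87.7 ± 12.8 CPM (SD, n = 3), and each organoid was above each 2D culture without passing (0.35 ± 0.21, edgeR adjusted p = 0.251). Srp9 and Srp14, which form the domain that pauses translation, were lower in every organoid and did not pass (-0.54 ± 0.28 and -0.46 ± 0.18, edgeR adjusted p = 0.193 and 0.0951), though DESeq2 called Srp14 lower (adjusted p = 0.0498). Srp19, needed for assembly, stood at 58.9 ± 2.93 and 62.4 ± 12 CPM (SD, n = 3) and its groups overlapped.

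Of 9 translocon members 1 rose and 0 fell, beside 14.9% higher and 12.6% lower of all genes. The median log2 fold change of the 9 was 0.31. Ssr4, the delta subunit of the translocon-associated protein complex, was at 164, 184 and 171 CPM in 2D culture and at 288, 336 and 235 CPM in organoids. It rose by 0.73 ± 0.21 (edgeR adjusted p = 0.0431), did not overlap, and lost its call with no low-count filter (adjusted p = 0.0708). The other subunits Ssr1, Ssr2 and Ssr3 had log2 fold changes of -0.12, 0.31 and 0.59 overlapped between groups and did not pass (edgeR adjusted p = 0.26 to 0.772). The small channel subunits Sec61b and Sec61g were at -0.44 ± 0.22 and -0.71 ± 0.31, and the pore Sec61a1 was at -0.15 ± 0.33, none past the test (edgeR adjusted p = 0.133 to 0.767). Sec63, which recruits the chaperone BiP to the channel, was at 28.9, 39.1 and 29.9 CPM in 2D culture and at 45.5, 116 and 22.6 CPM in organoids. Organoid 2 lay far above and organoid 3 below the 2D range, and the difference did not pass (edgeR adjusted p = 0.273). Sec62, its partner, was above the 2D range in all 3 organoids and did not pass (0.52 ± 0.22, edgeR adjusted p = 0.121).

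Signal peptidase gave no call among 3 members, beside 14.9% higher and 12.6% lower of all genes. None passed at an unadjusted p under 0.05, with DESeq2 or with limma-voom either. Spcs1 was called lower with total library size (-0.63, adjusted p = 0.0499). Spcs1 and Spcs2, accessory subunits, had log2 fold changes of -0.01 ± 0.17 and 0.17 ± 0.19. Spcs3, a subunit needed for cleavage, was at 24.8, 20.4 and 24.3 CPM in 2D culture and at 22.4, 3.55 and 15.2 CPM in organoids. Organoid 2 was low and organoid 1 lay inside the 2D range (-0.76 ± 0.61, edgeR adjusted p = 0.391).

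Among the cargo receptors 0 of 5 passed in either direction, beside 14.9% higher and 12.6% lower of all genes. The receptors' median log2 fold change was -0.04. At an unadjusted p under 0.05, Mcfd2 alone was lower. Lman1 (ERGIC-53) and Mcfd2 form a receptor that carries clotting factors in humans, and they went different ways. Mcfd2 was at 91.7, 86.7 and 96.3 CPM in 2D culture and at 56.1, 39.8 and 11.4 CPM in organoids. All organoids were lower and organoid 3 was lowest (-1.36 ± 0.53, edgeR adjusted p = 0.101). It passed as lower with DESeq2 (-1.33, adjusted p = 0.0378), with limma-voom (-1.71, adjusted p = 0.0135) and without organoid 3 (-0.94, adjusted p = 0.0267). Scaling by library totals also called Mcfd2 lower (-2.04, edgeR adjusted p = 0.0168). Lman1 was at 342, 308 and 309.8 CPM and at 628, 328 and 425 CPM, with organoid 2 inside the 2D range (0.53 ± 0.28, edgeR adjusted p = 0.206).

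The p24 proteins Tmed2 and Tmed10 sort cargo between ER and Golgi as partners. Tmed2 was at 1073, 970.3 and 1014 CPM in 2D culture and at 742, 286 and 824 CPM in organoids, lower in each without passing (-0.72 ± 0.40, edgeR adjusted p = 0.224). It was called lower with limma-voom (-0.86, adjusted p = 0.05) and after scaling by library totals (-1.37, adjusted p = 0.0278). Tmed10 was at 381 ± 5.99 and 418 ± 136 CPM (SD, n = 3), and its groups overlapped. Surf4, a receptor for soluble secreted proteins, was at 787, 704 and 782 CPM and at 1017, 363 and 831 CPM, with organoids on both sides of the 2D range. Surf4 had fractional counts in 5 libraries, and Sar1a in 1.

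For retrieval, 0 of 6 COPI coat members passed in either direction, beside 14.9% higher and 12.6% lower of all genes. The log2 fold changes of these members ran from -0.08 to 0.54. Cope, the epsilon subunit, was at 316, 311 and 299.9 CPM in 2D culture and at 402, 517 and 426 CPM in organoids. It was the only COPI member without overlap (0.54 ± 0.20, edgeR adjusted p = 0.0906), and the only one at an unadjusted p under 0.05 or past the test with DESeq2 (0.56, adjusted p = 0.0108). It had fractional counts in 6 libraries. Arcn1, the delta subunit, was at 569, 455 and 544 CPM and at 797, 261 and 678 CPM, so that organoid 1 and 3 lay above and organoid 2 below the 2D range. Copa, Copb1, Copb2 and Copg1 showed the same order, with organoid 2 below the 2D range and organoid 1 above it, and fold changes of 0.22, -0.04, 0.21 and -0.08 on the log2 scale.

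The KDEL receptors, which catch escaped ER chaperones and hand them to COPI, were higher in organoid 1 and 3 without passing. Kdelr3 was at 252, 243 and 242 CPM in 2D culture and at 564, 279.8 and 446 CPM in organoids, above the 2D range in all 3 (0.81 ± 0.29, edgeR adjusted p = 0.0791). Kdelr1 was also above it in all 3, at 341, 195 and 285 CPM against 179, 193 and 189 CPM (0.55 ± 0.25, edgeR adjusted p = 0.148). Kdelr2 was at 517, 514 and 522 CPM and at 949, 466 and 697 CPM, with organoid 2 below the 2D range (0.44 ± 0.29, edgeR adjusted p = 0.303). Kdelr3 passed with DESeq2 (adjusted p = 0.0217) and limma-voom (adjusted p = 0.0382), and without organoid 2 all 3 receptors passed (adjusted p = 0.00738, 0.0212 and 0.00381 for Kdelr1, Kdelr2 and Kdelr3). With total library size Kdelr1 and Kdelr2 turned to -0.10 and -0.22 and Kdelr3 stood at 0.15. The Kdelr3 to Kdelr1 ratio was 1.26 to 1.41 in 2D culture and 1.44 to 1.65 in organoids, a narrow gap without overlap (exact permutation p = 0.1, adjusted 0.16). The Kdelr2 to Kdelr1 ratio overlapped (exact permutation p = 0.3).

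The organoids differed from each other more than the flat cultures did. The median SD of log2 CPM over members was 0.084 in 2D culture and 0.414 in organoids, compared with 0.137 and 0.689 over all genes tested. Over the 6914 genes at or above the lowest member's mean level it was 0.0956 and 0.527. Organoid 1 was the highest organoid in 28 of 46 members (60.9%, against 33.3% of all genes), and organoid 2 the lowest in 29 (63%, against 38.3%). Among those 6914 genes the shares were 33.3% and 43.4%. Against the 2D culture mean, the members' median log2 ratio was 0.46, -0.14 and 0.33 in organoid 1, 2 and 3. The COPI coat stood at 0.46, -0.59 and 0.36, the cargo receptors at 0.43, -1.06 and 0.13, and the KDEL receptors at 0.87, 0.06 and 0.61. Organoid 2 was the lowest organoid in each of these medians. In the exit-site receptors organoid 3 was lowest, with medians of 1.14, 1.05 and 0.46 in organoid 1, 2 and 3. Organoid 2 was the library with the highest Creb3l1 and Sec63. It had the lowest Col2a1 of the organoids (78321, 6414 and 21945 CPM in organoid 1, 2 and 3). It also had the fewest counts in all, 18592574, and the part of depth in these differences was not tested. Without organoid 2, the 9 called members kept their calls, Ssr2, Ssr3, Sec23a, Sec24d, Lman1, Copa, Copb2, Cope, Arcn1 and the 3 KDEL receptors also rose, and Srp9 fell (-0.75, edgeR adjusted p = 0.0296). Of these, DESeq2 on all libraries also called Sec23a, Sec24d, Cope and Kdelr3.

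**Figure D4:**
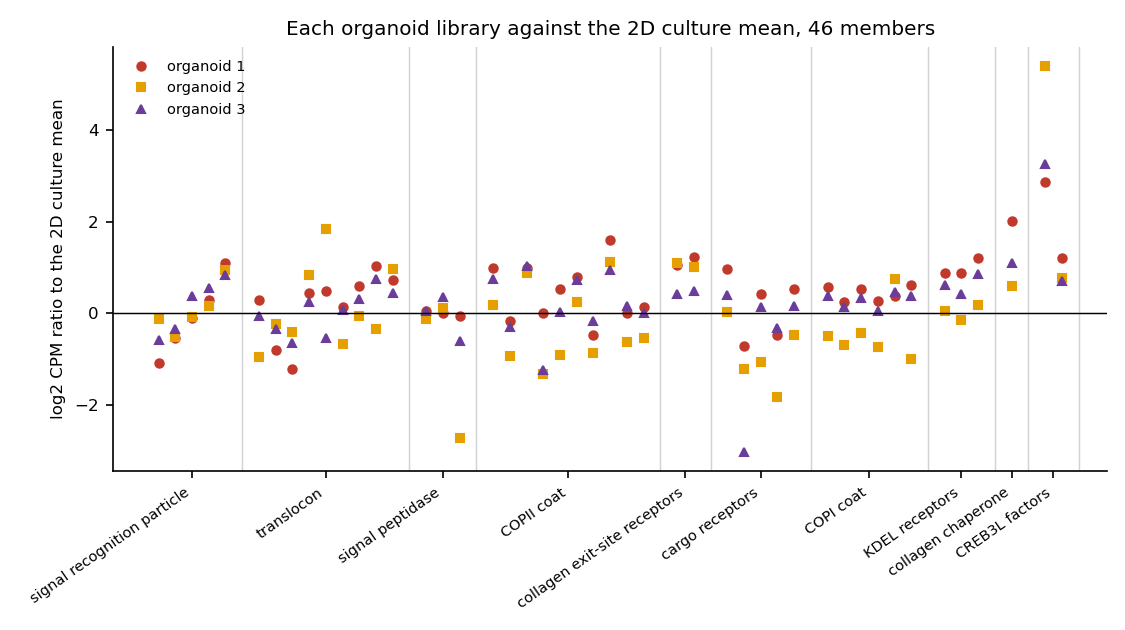
Log2 ratio of CPM in each organoid library to the mean of the 2D cultures, for the 46 members in pathway order, with a marker for each organoid. Squares of organoid 2 lie lowest of the 3 in 29 members and highest in 9, among them Creb3l1 and Sec63.

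Other genes of the early secretory pathway, were listed by function. Of 83 in the files 80 were tested, 12 rose (15%), 6 fell (7.5%) and 62 did not pass, beside 14.9% higher and 12.6% lower of all genes, with a median log2 fold change of 0.26 beside -0.03 for all genes. Sec16a, the scaffold on which ER exit sites form, was at 128, 117 and 137 CPM in 2D culture and at 494, 619 and 374 CPM in organoids. It rose without overlap by 1.96 ± 0.25 (edgeR adjusted p = 0.003), the largest rise of that list. Golgb1 (giantin), a long Golgi tether, was at 68.8, 67 and 67.1 CPM and at 188, 326 and 174 CPM (1.76 ± 0.29, edgeR adjusted p = 0.00684). Copz2, a COPI zeta subunit, was at 45.9, 54.8 and 38.2 CPM and at 70.2, 139 and 113 CPM (1.21 ± 0.30, edgeR adjusted p = 0.0266). Organoid 2 was highest in all 3 of these genes, as it was in 1 of the 6 COPI coat members, Cope.

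The largest falls of that list were in Trappc2, Cnih4 and Cnih1. Trappc2, the tether gene mutated in a human spondyloepiphyseal dysplasia, was at 15.9, 15.1 and 16.3 CPM in 2D culture and at 3.71, 2.34 and 5.58 CPM in organoids (-2.02 ± 0.43, edgeR adjusted p = 0.0165). The cornichon cargo receptor Cnih4 was at 91.7, 99.7 and 96.4 CPM and at 23.4, 15.7 and 32.1 CPM (-2.01 ± 0.30, edgeR adjusted p = 0.00487). Cnih1 was at 196, 207 and 191 CPM and at 83.7, 40.3 and 74.2 CPM (-1.58 ± 0.30, edgeR adjusted p = 0.0112). No organoid overlapped the 2D range in these 3 genes. By function, 4 of 14 Golgi tethers, 4 of 10 other COPI and ARF genes, 3 of 11 other COPII exit genes and 1 of 8 other translocation genes rose, and 3 of 13 other cargo receptors, 2 of 9 TRAPP subunits and 1 of 3 other CREB3 factors and their proteases fell, beside the same background shares. None of 9 oligosaccharyltransferase genes and 3 other signal recognition genes passed in edgeR's test, nor at an unadjusted p under 0.05. With total library size 2 of the list were higher and 16 lower, beside 8.14% and 27% of all genes. Without any of 2D culture 1, 2 and 3 only 2 rose and 1 fell. Of all genes 5.34%, 5.79% and 5.25% were then higher and 2.98%, 3.27% and 3.03% lower. Without organoid 2 there were 28 of the list that rose, beside 20.5% of all genes.

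**Figure D5:**
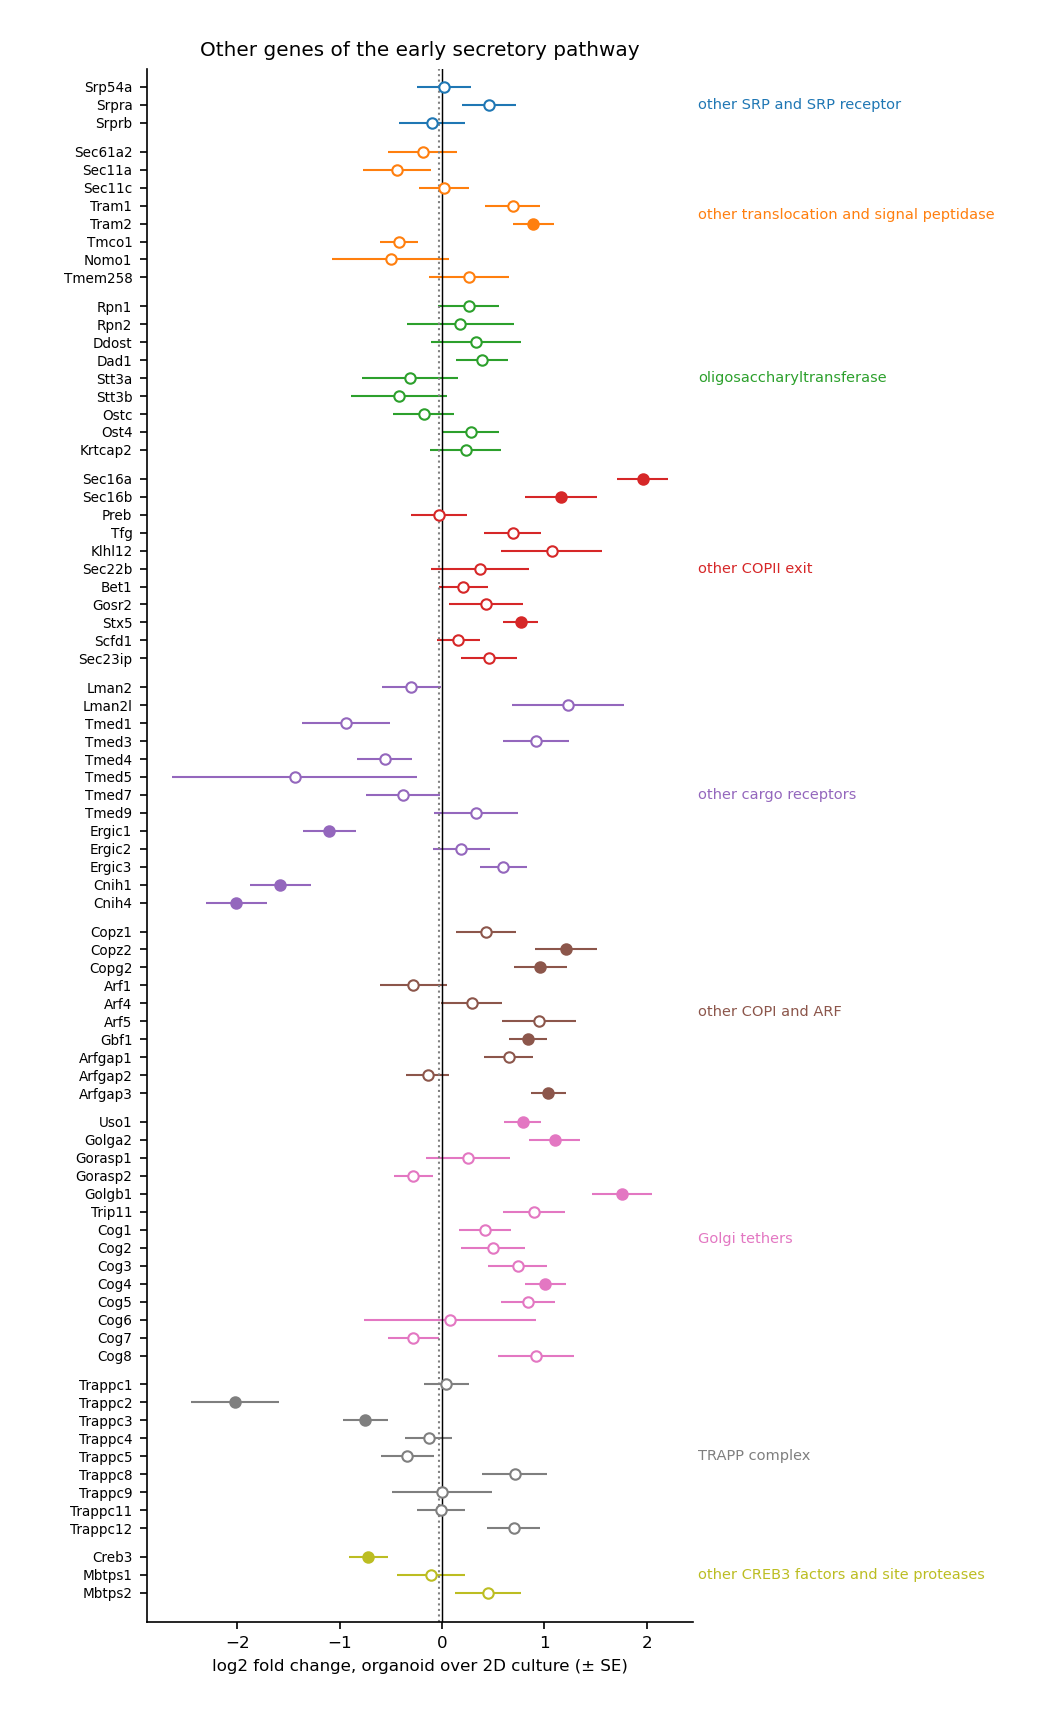
Log2 fold change with its standard error for the 80 other tested genes of the early secretory pathway, organoid over 2D culture, grouped by function. Filled points passed the edgeR test and the dotted line is the median of all genes; Sec16a (1.96) and Golgb1 (1.76) lie farthest to the right, and Trappc2 (-2.02) and Cnih4 (-2.01) farthest to the left.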

How the data were processed

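RNA was taken up in Trizol and mRNA libraries followed DNBSEQ protocols, per the labels. RSEM, Bowtie2, HISAT, HISAT2 and DESeq2 are listed by the submitters' processing notes, with no role or version. Genome build, annotation and strand: not given in the sources used here. The authors deposited estimated counts (expected counts) per gene, not normalised, for 17954 genes, with 0 rows naming no gene and 1846 to 2501 values per library that are not whole. Counts were rounded. All 46 member IDs matched the RefSeq table of GRCr8.

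Genes were kept by filterByExpr (minimum count 10), scaled by TMM and tested with edgeR 4.0.16 (robust quasi-likelihood, Benjamini-Hochberg over 13052 genes, R 4.3.3). Standard errors are the size of the log2 fold change divided by the root of the F statistic. Ratios used a pseudocount of 0.5 and two-sided exact permutation tests. The alternatives were total library size, DESeq2 1.42.0, limma 3.58.1 (voom with a weight per group), no filter, a replicate block and leaving out each library. Only the edgeR fit was tested on simulated data. These were drawn with a common spread for both groups, so they cannot speak to the unequal spread seen here. Libraries of a group differed by more than sampling noise. Chi-square divided by its degrees of freedom was 9.1 to 18.9 between 2D cultures and 189 to 410 between organoids. Named were members, the 3 largest rises and 3 largest falls among called other pathway genes of at least 1 CPM, and cargo genes. Members and lists were chosen with earlier results of these data known. A planned count of proteins with a KDEL-type ending was not analysed here.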

Additional observations from a re-analysis of the deposited data

How the results depend on the processing

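No member called in the main fit changed direction under any alternative run. The number of members higher (9) became 1 with total library size and 4 with a replicate block (Creb3l1, Sec24a, Sec31a and Srp72). It became 0 to 21 when 1 library was left out, and stayed within 1.5 times with DESeq2, limma-voom and no filter (13, 9 and 6). Over all genes the share higher was 14.9% in the main fit, 8.14% with total library size and 11% with a replicate block. That share was 5.25% to 20.5% when 1 library was left out, and 20.4%, 14.9% and 10% with DESeq2, limma-voom and no filter. The number of members lower (0) became 12 with total library size, 2 with DESeq2, 2 with limma-voom and 0 to 1 when 1 library was left out. The 12 with total library size were Srp9, Srp14, Sec61b, Sec61g, Ssr1, Spcs1, Sec13, Sec23b, Sec24b, Sar1b, Mcfd2 and Tmed2. Of all genes 12.6% were lower in the main fit, 27% with total library size, 17.3% with DESeq2 and 14% with limma-voom. Leaving out 1 library gave 2.98% to 19.2%. Other pathway genes higher (12) became 2 with total library size, 21 with DESeq2, 6 with a replicate block and 2 to 28 when 1 library was left out, and those lower (6) became 16 with total library size and 1 to 6 when 1 library was left out. The same shares of all genes stand beside these counts. For the other pathway list DESeq2, limma-voom, no filter and the block were added after seeing the data. With 2 libraries left in a group, 0, 1 and 0 members were higher without 2D culture 1, 2 and 3. Without organoid 1, 2 and 3 the numbers were 9, 21 and 8. The causes of these shifts were not tested. The replicate numbers are not said to pair libraries. Deviations of same-numbered libraries correlated at 0.061, 0.187 and 0.021, and 1 of 3 numbers was the best match in both groups.

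Signs turned only in members that did not pass in the main fit. Some of these passed as higher under other settings, such as Cope and Sec24d with DESeq2. With total library size the log2 fold changes were -0.52 for Srp19, -0.26 for Srp68, -0.08 for Sec62, -0.33 for Ssr2, -0.08 for Ssr3, -0.43 for Spcs2, -0.68 for Sec24c, -0.03 for Sec24d, -0.14 for Lman1, -0.53 for Tmed10, -0.43 for Copa, -0.44 for Copb2, -0.06 for Cope, -0.52 for Arcn1, -0.10 for Kdelr1 and -0.22 for Kdelr2. Spcs1 was at 0.02 with DESeq2, and Sec24c at -0.11 with limma-voom, -0.04 with no filter and -0.11 with a replicate block. Leaving out 1 library gave -0.10 to 0.20 for Srp19, -0.41 to 0.17 for Sec61a1, -0.23 to 0.15 for Ssr1, -0.05 to 0.09 for Spcs1, -0.33 to 0.35 for Sec24c, -0.29 to 0.12 for Sar1a, -0.22 to 0.11 for Sar1b, -0.31 to 0.33 for Surf4, -0.09 to 0.41 for Tmed10, -0.19 to 0.25 for Copb1, -0.26 to 0.21 for Copg1 and -0.12 to 0.54 for Arcn1. The log2 ratio differences were then -0.03 to 0.10 for Sar1b to Sar1a and -0.02 to 0.11 for Mia3 to Mia2.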
